A study of Homo sapiens with 2 samples.

Results

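PAX5 binding around MYC and PVT1 was read from the peak list of a ChIP-seq experiment in NALM6 cells, a long-established line of human B-cell precursor leukaemia. The sites are the called peaks whose summit lies on chromosome 8 between 128.0 and 131.0 Mb (hg19), 29 of 21361 in the whole list. The interval was chosen by a measured value, the number of ChIP reads, since it holds the summit with the most reads of the list. That summit and the interval around it are therefore described without a test. Every value compares 1 PAX5 ChIP sample, made with an Abcam antibody and pooled by the authors from a number of libraries that is not stated, with 1 combined input control made without antibody. Both came from untreated NALM6 cells grown for 4 days with 10% serum and 2 mM glutamine, per the labels. The control is titled with the name RXL, whose meaning is not stated, and all folds rest on it. The ChIP held 46190180 tags and the control 25416858. Neither has a replicate, so no p-value was computed, and the 95% intervals cover counting error only. Those of the folds of single sites take the control background as fixed and cover the counting error of the ChIP alone.

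MYC encodes a transcription factor that drives cell growth and division and is activated in many cancers. PVT1, its neighbour on the same strand, produces a long noncoding RNA, and breakpoints of lymphoma translocations fall in and around both genes. MYC is known to be controlled by enhancers lying far away on the same chromosome, among them a NOTCH1-bound enhancer in T-cell leukaemia and a cluster active in blood stem cells and myeloid leukaemia, both downstream of the gene. PAX5 is the paired-domain transcription factor that establishes B-cell identity. In the RefSeq gene order of GRCh38.p14, used for names only, PVT1 comes right after MYC. The nearest protein-coding neighbours of MYC are POU5F1B, a retrogene copy of a pluripotency factor gene, before it and GSDMC, a gasdermin gene, after it. Between MYC and GSDMC the annotation lists 21 genes, of which 11 are lncRNAs, 6 are miRNAs and 4 are pseudogenes.

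Each site carries a number of ChIP reads over its summit, a control background and a fold enrichment. The ChIP reads were recovered from the deposited pileup. The control background is the largest local input level that the peak caller found, in extended reads. The fold is the authors' ratio of the 2 after scaling the ChIP to the depth of the control, with 1 added to each. Distances run from the start of MYC at 128.748 Mb and are rounded to 1 kb, the precision of the gene borders used (MYC 128.748 to 128.754 Mb, PVT1 128.806 to 129.114 Mb).

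PAX5 sites lay on both sides of MYC and reached far downstream of it. Of the 29 summits, 7 were upstream of the MYC start, 2 within MYC, 1 between MYC and PVT1, 3 within PVT1 and 16 downstream of PVT1. Of all 29, 14 sites (48.3%) lay more than 1 Mb downstream of MYC. The interval reaches farther downstream than upstream. Within 748 kb on either side of the MYC start the numbers were equal, with 7 sites downstream and 7 upstream. Sites were spread unevenly along the interval, with 12 in the first Mb, 3 in the second and 14 in the third. The longest stretch without a site ran for 539 kb, from 894 to 1432 kb downstream of MYC. On chromosome 8, 69 of the 787 gaps between neighbouring summits were longer.

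The density of sites was 9.67 per Mb in the interval (exact Poisson 95% interval 6.47 to 13.9), against 5.30 per Mb over the rest of chromosome 8 and 7.51 per Mb over the autosomes outside the interval. A number this high was not rare. When the autosomes were tiled in windows of the same 3 Mb, 247 of 914 windows (27.0%) held at least 29 sites. The median window held 15.

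**Figure D1:**
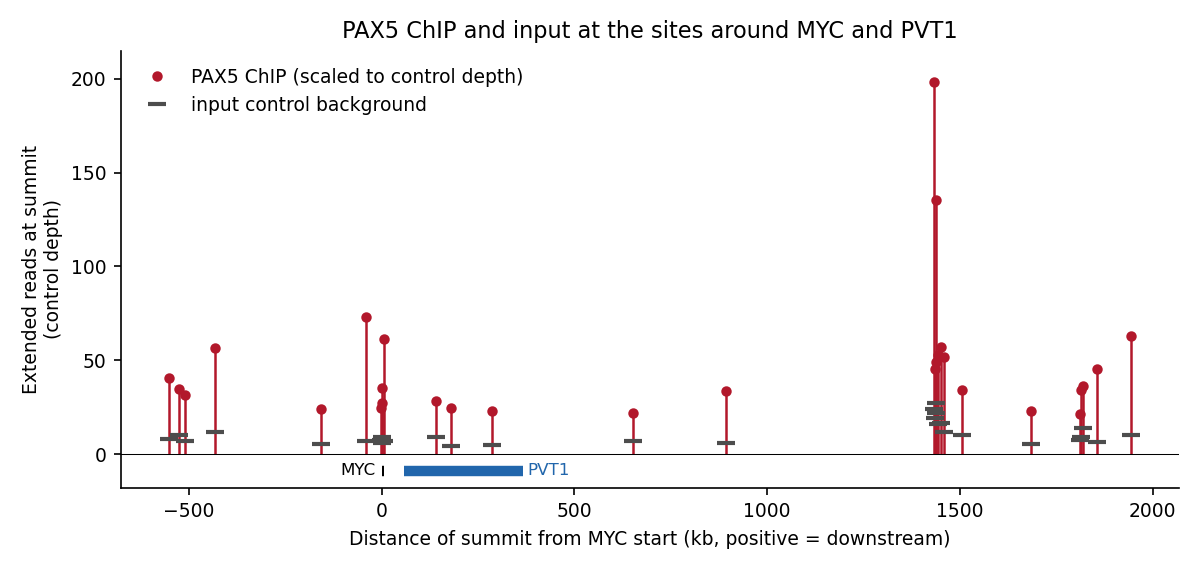
PAX5 ChIP reads at each summit (red, scaled to the depth of the control) and the input control background (grey dashes) for the 29 sites, by distance of the summit from the MYC start in kb, with MYC and PVT1 drawn below. The tallest summit stands 1432 kb downstream of MYC, and the highest grey dash is at 1437 kb.

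By fold the sites resembled the list they came from. A fold of 5 was reached by 5 of 29 sites (17.2%; Clopper-Pearson 95% interval 5.85 to 35.8), against 25% of all 21361 peaks. The median fold was 4.02 in the interval, with an exact binomial 95% interval of 3.19 to 4.64. It was 3.89 over the rest of chromosome 8 and 3.89 over all peaks. The median number of ChIP reads was 64 in the interval (51 to 94) and 61 over all peaks. A −log10 q of at least 10 was reached by 11 sites (37.9%), against 37.1% of all peaks. The weakest fold of the interval was 2.17 and the highest 9.27.

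A fold of at least 4 was reached by 15 sites (51.7%), against 46.3% of all peaks. The 5 sites with a fold of at least 5 fell into 3 places. One pair flanked MYC, 1 was the distant summit with the most reads, and another pair lay farther downstream still. None of the 5 sites within the borders of MYC or PVT1 was among them, against 25% of all peaks with such a fold. With so few sites, this does not set these genes apart.

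**Figure D2:**
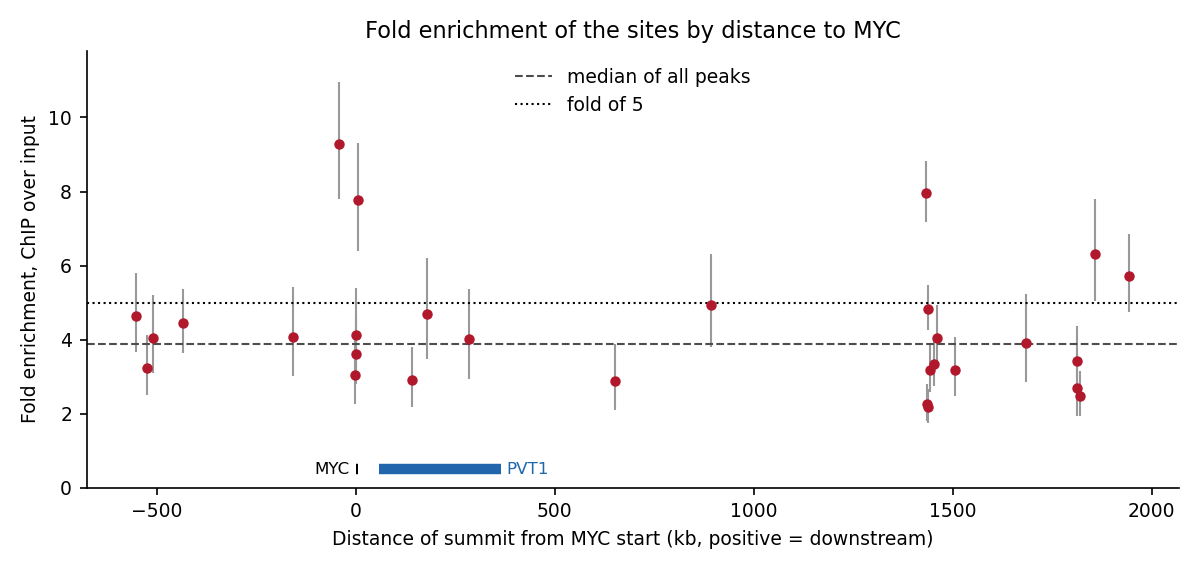
Fold enrichment of ChIP over input at the 29 sites, by distance of the summit from the MYC start in kb. Grey bars are 95% counting intervals with the control background taken as fixed, the dashed line is the median of all peaks (3.89) and the dotted line a fold of 5. The 5 sites above the dotted line flank MYC or lie 1432 kb or more downstream. The points in PVT1 lie below it, though bars reaching 5.37 and 6.21 there cross it.

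At MYC itself, PAX5 enrichment was lower at the start of the gene than on both flanks. The summit nearest to the MYC start lay 1 kb downstream of it, in a peak from 128747791 to 128749254, with 64 ChIP reads (counting interval 49.3 to 81.7) over an input of 9.0 reads. Its fold was 3.62 (2.81 to 4.60), below the list median of 3.89. The peak spans the start of MYC as given here. The other summit within MYC, 2 kb from the start in a peak from 128749382 to 128750406, had 49 reads over a background of 5.78 reads and a fold of 4.12 (3.09 to 5.40). Just upstream of the start, a peak from 128746764 to 128747345 had 45 reads over 7.42 reads, a fold of 3.06 (2.26 to 4.05). The intervals of these 3 folds overlap, and no order is read from them. Gaps of under 500 bp separate these 3 peaks, and together they span 3643 bp.

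The stronger sites lay outside the gene. A peak from 128753780 to 128755659 had its summit 7 kb from the MYC start, within 1 kb of the end of the gene. It held 111 reads (91.3 to 134) over a background of 7.0 reads and reached a fold of 7.76 (6.41 to 9.32), rank 3 within the interval. The highest fold of the interval was 9.27 (7.78 to 11), at a peak from 128707099 to 128708328. Its summit lay 41 kb upstream of the MYC start and held 133 reads (111 to 158) over 7.0 reads. It had rank 521 of all peaks by fold. The fold intervals of these flanking sites do not overlap with those of the 3 peaks at the start of the gene. These intervals take the control background as fixed. The counting error of the control, with only 5.78 to 9.0 reads at these 5 sites, is left out. Whether the separation would hold with that error was not tested.

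The peaks next to MYC were broad. Of the 5 sites between 41 kb upstream and 7 kb downstream of the MYC start, 4 were wider than 1000 bp, and none of the other sites of the interval was. In the whole list, 3.21% of the peaks were that wide. The peak at the end of MYC, 1880 bp wide, had rank 54 by width in the list, and the peak over the start of MYC, 1464 bp wide, had rank 138. The broad peaks on both flanks had ranks 1 and 3 by fold within the interval, while those at 1464 and 1025 bp had folds of 3.62 and 4.12. The median width was 349 bp among all peaks with a fold between 3 and 4.5, the range that holds all 3 peaks at the start of MYC, which were 582, 1464 and 1025 bp wide. Peaks wider than 1000 bp had a median fold of 5.74 in the whole list. Over the 29 sites, width and fold had a Spearman's rho of 0.476, and over all 21361 peaks one of 0.419. The sites share the same ChIP and input and the caller's threshold, and are not replicates.

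**Figure D3:**
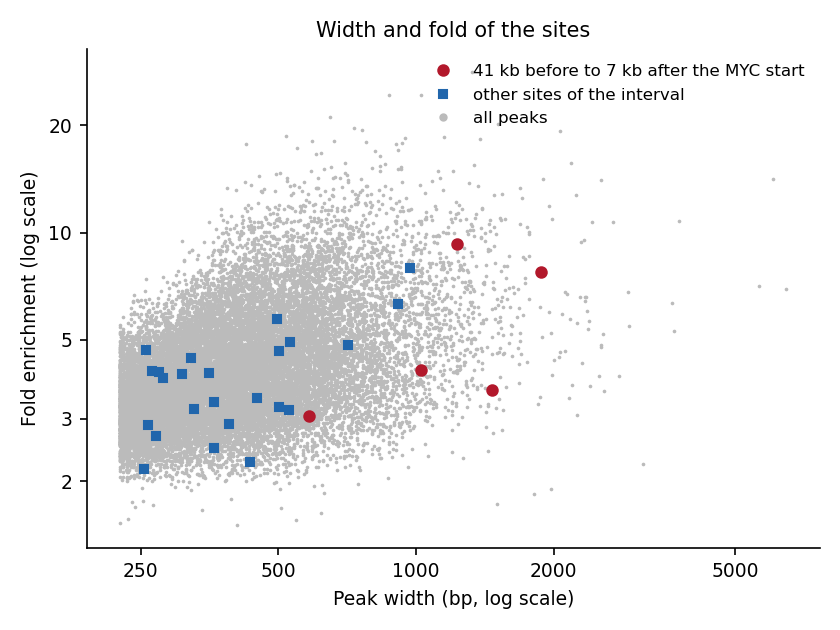
Peak width in bp against fold enrichment, both on log axes, for the 5 sites next to MYC (red), the other 24 sites of the interval (blue) and all peaks (grey). Of the 5 red points, 4 lie to the right of every blue one, and the folds of all 5 run from 3.06 to 9.27.

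PVT1 held 3 sites across its 308 kb, all with few reads. Their summits lay 140, 180 and 285 kb downstream of the MYC start, and their density of 9.74 per Mb was close to that of the whole interval. The first, in a peak from 128888248 to 128888637, had 51 reads over a background of 9.0 reads and a fold of 2.91 (2.19 to 3.79). The second, from 128928233 to 128928488, had 45 reads over 4.5 reads, the lowest background of the interval, and a fold of 4.68 (3.47 to 6.21). The third, from 129033137 to 129033444, had 42 reads over 5.0 reads and a fold of 4.02 (2.94 to 5.37). All 3 had fewer reads than the list median of 61, while 2 of the 3 folds were above the list median of 3.89. Their fold intervals overlap. The site between MYC and PVT1 is the one at the end of MYC described above, and no summit lay at the start of PVT1.

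Upstream of MYC, 4 sites lay together 433 to 551 kb away and 1 alone at 157 kb. Their folds were moderate, from 3.24 to 4.64. The farthest, from 128196831 to 128197331, had 74 reads over 8.0 reads and a fold of 4.64 (3.66 to 5.79). The one nearest to MYC in this group, from 128315078 to 128315399, had the most reads of the 4, 103 over a background of 12 reads, and a fold of 4.44 (3.64 to 5.36). The lone site at 157 kb, from 128590524 to 128590788, had 44 reads over 5.17 reads and a fold of 4.08 (3.01 to 5.43).

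Between PVT1 and the distant summit only 2 sites were called. They lay 653 and 894 kb downstream of the MYC start. The nearer one had 40 reads over 7.0 reads and a fold of 2.88. The farther one, from 129641513 to 129642042 and at the edge of the 539 kb gap, had 61 reads over 6.0 reads and a fold of 4.94 (3.81 to 6.30), just short of a fold of 5.

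The summit with the most ChIP reads of the whole list lay 1432 kb downstream of the MYC start and 1066 kb beyond the end of PVT1. Its peak runs from 130180030 to 130180999, with the summit at 130180491. It held 360 ChIP reads (324 to 399), which is 198.1 at the depth of the control, over a control background of 24.0 reads. The fold of 7.96 (7.17 to 8.83) gave it rank 1016 by fold, while it had rank 35 by −log10 q (102). Its excess of scaled ChIP reads over the background was 174 reads, rank 2 of the list. The lead in reads was not resolved at this depth, since the next summits of the list held 350 and 348 reads, within its counting interval. Among the 10 peaks with the most reads, folds ran from 3.95 to 20.2 and backgrounds from 8.55 to 48.0 reads. Of the other 9, 8 had a higher fold than the site downstream of MYC, and 1, on the contig GL000220.1, had a lower one.

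The summit was the first of 7 within 27.1 kb. The second summit in reads of the interval lay 1437 kb from the MYC start, in a peak from 130184844 to 130185553, with 246 reads (216 to 279) over 27.2 reads and a fold of 4.83 (4.25 to 5.47). It had rank 45 by reads in the list. The remaining 5, between 1436 and 1460 kb from the MYC start, held 82, 89, 96, 104 and 94 reads in the order of their positions. Their folds were 2.26, 2.17, 3.17, 3.34 and 4.06, and the first 2 of these were the lowest of the interval. Every one of the 7 had more ChIP reads than the median peak, and 4 of them had a fold below the list median. A median splits the list evenly, so the count of 4 does not set the group apart. The count in reads includes the summit chosen by its reads, and a peak over a high background needs more reads to be called. In the whole list, 412 peaks (1.93%) had at least this many summits in the 30 kb from their own summit on.

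**Figure D4:**
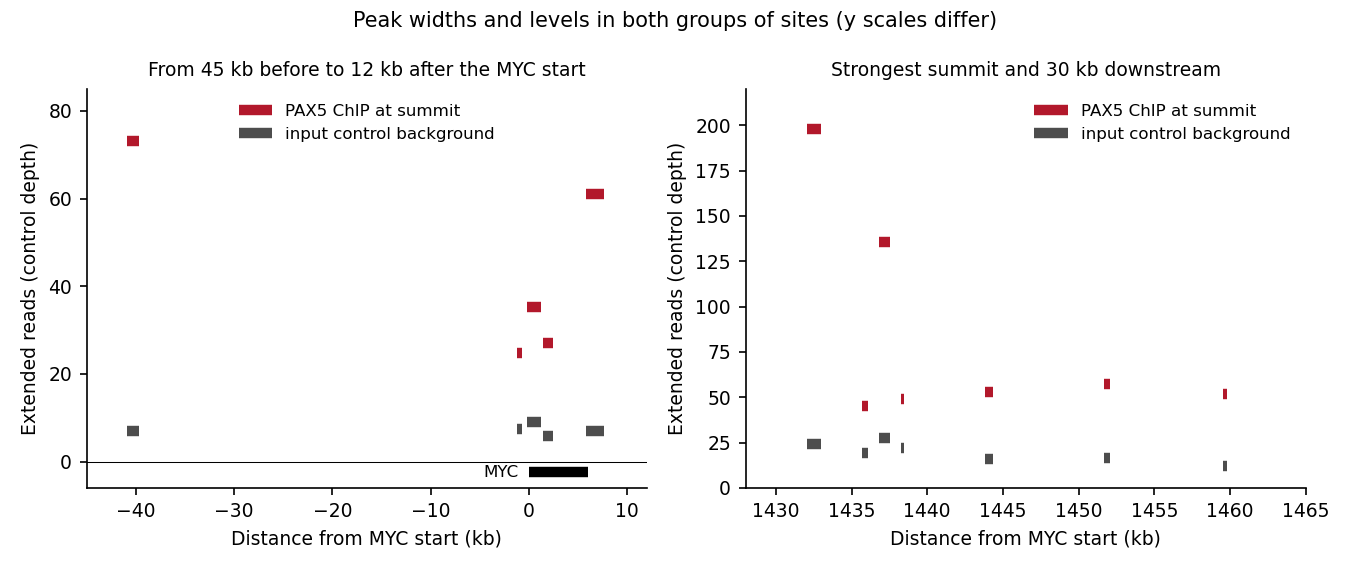
Peaks next to MYC (left) and at the distant group of sites (right), drawn to their width along the distance from the MYC start in kb, at the height of their ChIP reads (red, scaled to control depth) and of the input control background (grey). The 2 panels have different y scales. ChIP reads at the distant group lie above the highest near MYC at 2 peaks only, while its grey bars, from 12 to 27.2 reads, are all above those near MYC, from 5.78 to 9.0 reads.

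The input was raised over the same stretch. The control background had a median of 19.4 reads at the 7 sites (range 12 to 27.2), against 7.18 reads at the other 22 sites of the interval (4.5 to 14.0), 8.0 reads over the rest of chromosome 8 and 8.0 reads over all peaks. A background of at least 10 reads was found (within 0.005 reads) at 7 of the 7 sites and at 5 of the other 22, against 32.4% of all peaks. The ChIP reads had a median of 96 at the 7 sites and 61.5 at the other 22, a ratio of 1.56, against a ratio of 2.70 for the background. The background of 24.0 reads at the strongest summit was reached or passed by 34 peaks of the list (0.159%), itself included. What raised the input here was not tested.

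A mean of the input over 10 kb is known at only 1 of the 7 sites, which does not give the width of the rise. At the peak from 130183681 to 130184114, the background of 19.4 reads was set by the widest window of the caller, 10 kb, and stands for 862 control reads in that window. This was 9.16 times the genome mean of 2.12 reads. The background of 596 peaks in the list was set by that window, with a median of 4.30 reads, and none of the others reached this level. Only 2 of the 596 reached 10 reads. At peaks whose background was set by a narrower window, the 10 kb level is not known, except that it was no higher than the background given. At the strongest summit the input of 24.0 reads was 1.24 times that 10 kb level. Going downstream, the background was 16.0, 16.4 and 12 reads at the last 3 of the 7 sites. It was 10.0 reads at the next site, 1505 kb from MYC, which had 62 ChIP reads and a fold of 3.19.

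Over the 29 sites, ChIP reads and control background rose together, with a Spearman's rho of 0.698, against 0.613 over all peaks. The sites share the same ChIP and input, and the calling threshold rises with the background.

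**Figure D5:**
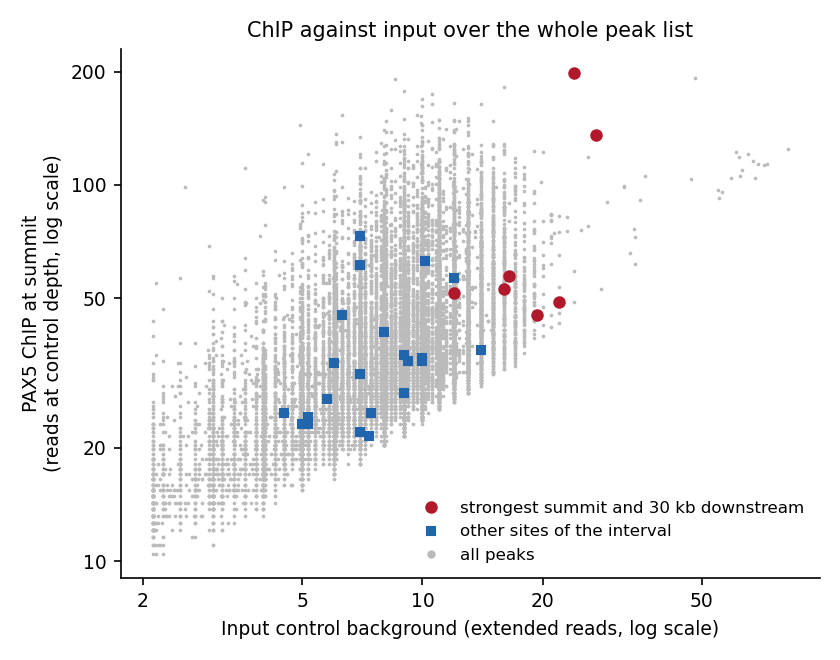
Scaled ChIP reads at the summit against the input control background, both in extended reads on log axes, for the 7 sites of the distant group (red), the other 22 sites of the interval (blue) and all peaks (grey). The red points lie at backgrounds from 12 to 27.2 reads, and 2 of them stand far above the lower edge of the list, where peaks are just called.

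Farther downstream, 6 more sites lay between 1685 and 1943 kb from the MYC start, and the last 2 of them were the stronger. A peak from 130604050 to 130604961, with its summit at 1857 kb, had 82 reads (65.2 to 102) over 6.30 reads and a fold of 6.32 (5.05 to 7.81), the fourth highest of the interval. A peak from 130691286 to 130691782, at 1943 kb, had 114 reads (94.0 to 137) over 10.1 reads and a fold of 5.73 (4.74 to 6.86), the fifth highest. The intervals of these 2 folds overlap each other. The other 4 sites had 39 to 66 reads and folds from 2.49 to 3.90. At the peak with the fold of 2.49, from 130566865 to 130567225, the background was 14.0 reads, the highest outside the group of 7.

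The borders of the interval fell in stretches without sites. The last summit before it lay 1794 kb upstream of the MYC start, with 142 reads and a fold of 8.79, and the first after it 2623 kb downstream, with 56 reads and a fold of 3.04. All 29 sites were kept with identical borders in the cleaned list of the authors. The share of the whole list that was kept is not given here, so this does not set the 29 sites apart.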

How the data were processed

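BWA and hg19 are the aligner and build named in the submitters' processing notes. MACS2 2.1.1.20160309 compared pooled ChIP reads with a combined control, without a fragment model, per the file headers. It extended the 50 bp reads to 225 bp and kept peaks at a q-value of 0.05. The number of pooled libraries is not stated. The deposited pileup signal was scaled by 0.550 to the control depth. The deposited fold is a ratio, and the deposited −log10 p and q values are the caller's.

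ChIP reads were recovered as pileup over scale (100% whole within 0.005 pileup units) and the background from pileup and fold. The window behind a background was taken as the genome mean (within 0.01 reads), else the summit window for whole reads, else the 1 kb window for multiples of 1 read in it, else the 10 kb window, where all 596 were whole reads within 0.002. The recovery of reads and background was run on simulated peaks built with the same formula. That checks the code, and not whether the deposited values follow the formula. The assignment of windows was not checked in this way. Poisson, Clopper-Pearson and median intervals are exact. Sites named in full were the 10 of highest fold, the 5 with most reads, the 3 nearest to MYC on each side, those in MYC and PVT1 and those at the largest gap. The distant group of 7, the sites 653, 1505 and 1819 kb downstream and the widths were described after their values were seen. The members and lists were chosen with earlier results of these data known. The tools were bedtools 2.31.1, scipy 1.17.1, matplotlib 3.10.9, pandas 2.3.3, numpy 2.4.6 and Python 3.11.15. The hg19 sequence and annotation were not used here.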

Additional observations from a re-analysis of the deposited data

How the results depend on the processing

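Of 21 alternatives to the 7 summary results, 16 left the value within its counting interval or the count within 1.5 times. With a −log10 q of at least 10, the number of sites was 11 instead of 29, the share with a fold of at least 5 was 45.5% instead of 17.2%, and the median fold was 4.94 instead of 4.02, all by construction, since weak sites drop out. The share and the median fold of all peaks under the same q filter are not given here. The filtered values of the interval therefore cannot be set against the values of the unfiltered list, and no enrichment is read from them. With a fold of at least 4 and no q filter, the share was 51.7%, against 46.3% of all peaks. With equal reach on both sides of the MYC start, the share of sites downstream was 50% instead of 75.9%, because the interval is longer downstream. The density ratio to the rest of chromosome 8 was 1.82. It was 1.80 with peaks 500 bp or less apart merged and 1.80 with a −log10 q of at least 10. Without the 1 Mb that holds the summit with most reads, by which the interval was chosen, it fell to 1.41. Against all other autosomal sites, the ratio was 1.29. No paired analysis was possible because there is 1 ChIP and 1 control. No order is read from folds whose counting intervals overlap, though overlap alone does not show that such folds are alike. A pool hides the spread between libraries.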
